A study of Mus musculus with 12 samples.

Results

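Markers of the layers of the cerebral cortex were compared between Nsd1 conditional knockout and control mice. The 45 genes were taken from a fixed list for layers 2/3, 4, 5, 6 and 6b. The list, Scnn1a included, was chosen with earlier results of these data known. All 45 were found among the 34193 rows of the deposited table, 42 of them under the listed name. The other 3 stood under another symbol in the table: Lamp5 as 6330527O06Rik, Dfnb31 as Whrn and Depdc6 as Deptor. Knockout (cKO) mice carried Nsd1 flx/flx alleles with Nestin-cre +/-, and control mice carried the same flx/flx alleles without the Cre (Nestin-cre -/-). Each genotype gave 6 libraries of total RNA from the cerebral cortex at 8 weeks of age. NSD1 methylates lysine 36 of histone H3, and the comparison asks which cortical genes differ once the Cre is present. A Nestin promoter drives Cre in neural progenitors and their descendants, so cells of other origin in the tissue are not expected to recombine.

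The mammalian neocortex is built in layers of excitatory neurons that are born in sequence, the deep ones before the upper ones. Layer 4 receives the main input from the thalamus, layers 2/3 send axons to other cortical areas, layer 5 holds the neurons that project to the brainstem and spinal cord, layer 6 projects back to the thalamus, and layer 6b is a remnant of the embryonic subplate. Cux1 and Cux2 (upper layers), Rorb (layer 4), Fezf2 and Bcl11b (layer 5) and Tbr1, Tle4 and Foxp2 (layer 6) are transcriptional regulators used to name these layers. Scnn1a, which encodes subunit alpha of the sodium channel of epithelia, is used as a marker of layer 4 neurons of sensory areas. In kidney and lung epithelia the channel takes up sodium and is formed with the beta and gamma subunits.

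Reads assigned to genes numbered 14583163 to 26975576 in the cKO libraries and 10510053 to 21096808 in the control libraries. Values are normalised counts, that is, reads scaled between libraries, and 3 reads correspond to 1.98 to 5.64 normalised counts depending on the library. Libraries carry the numbers of the deposited columns. In each genotype, libraries 1 to 3 held Y-linked reads (a sum of 4 genes above 100 normalised counts) and libraries 4 to 6 did not, and this split was a term in the model. Mitochondrial ribosomal RNA took 14.2% and 11.5% of the reads in control libraries 4 and 5, against 1.46% to 6.00% in the other 10. Nsd1 itself averaged 3251 ± 299 normalised counts in cKO and 4235 ± 850 in control cortex (SD, n = 6 each), a log2 difference of -0.36 (limma adjusted p = 0.383). The labels do not name the exons that the Cre removes, and these gene-level counts do not check the deletion. The labels number the libraries as biological replicates and name no animal. The p-values rest on the variation among these libraries, and whether each came from its own animal is not stated.

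Scnn1a rose in the cKO cortex, and it was the 1 layer marker of 45 that passed the test. Genes count as called where limma's p, adjusted by Benjamini-Hochberg over all 14397 genes tested, was under 0.05, which took in 0.834% of those genes in either direction and 0.764% as higher in the cKO. All 45 markers passed the filter of a mean of at least 10 normalised counts, and none, Cux2, Rorb, Fezf2 and Foxp2 included, was at 0 in any library. Of the 45, 21 lay above and 24 below 0, with a median log2 fold change of -0.03 that ran from -0.050 to 0.032 with single libraries left out. The other 44 markers, of every layer, had log2 fold changes from -0.49 to 0.27 and adjusted p of at least 0.460. No marker was called lower, where 0.0695% of all genes were, and 2 of the 44 had an unadjusted p under 0.05 with a lower level in the cKO. On the reads recovered from the table, edgeR called 0.827% and DESeq2 0.906% of the genes they tested, and Scnn1a alone among the 45. The authors' deposited table, with 0.906% of genes under the same threshold, holds 1 of the markers there, Scnn1a. The DESeq2 fit here reproduced that table (largest difference 9.2e-09), so the DESeq2 and the authors' results count as 1, not as 2. In whole tissue, a change in the number of cells of a type cannot be told apart from a change in RNA per cell.

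Scnn1a stood at 213, 233, 191, 141, 223 and 193 normalised counts in cKO libraries 1 to 6, against 97.1, 60.7, 61.1, 67.6, 55.9 and 87.6 in control libraries 1 to 6. No control value reached any cKO value, and the nearest pair were cKO library 4 at 141 and control library 1 at 97.1. Complete separation of the groups was found for 1.01% of the genes tested, 0.813% with the cKO above and 0.194% with the cKO below, and for no other layer marker. The means were 199 ± 32.8 in cKO and 71.7 ± 16.7 in control cortex (SD, n = 6 each), with a ratio of 2.78 between them. On the log2 scale Scnn1a differed by 1.47 (SE 0.15, 95% interval 1.15 to 1.80, limma adjusted p = 7.1e-05). It ranked at position 29 of the 14397 genes when these were ordered from the highest log2 fold change down. For Scnn1a the authors' deposited table gives 1.47 on the log2 scale (SE 0.17, adjusted p = 1.1e-15). In reads, the gene had 119 to 353 per cKO library and 36 to 118 per control library.

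The direction was the same in both sets of libraries, each of 3 cKO and 3 control. The log2 fold change of Scnn1a was 1.56 (SE 0.22) where Y-linked reads were present and 1.39 (SE 0.22) where they were not. The difference between the sets, 0.17 on the log2 scale, had a 95% interval of -0.50 to 0.84 (limma adjusted p = 0.859). Without control libraries 4 and 5, which held the most mitochondrial ribosomal RNA, the log2 fold change of Scnn1a was 1.39 (limma adjusted p = 0.0023).

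None of the other layer 4 markers was called. With Scnn1a, the median of the 4 was 0.08 on the log2 scale. That median was 0.022 without cKO library 3, 0.15 without cKO library 4 and 0.19 without control libraries 4 and 5. Over all libraries and without Scnn1a, the layer 4 median was -0.12, with 1 marker above 0 and 2 below it. Rorb, an orphan nuclear receptor that specifies layer 4 identity, had 665, 754, 767, 702, 827 and 728 normalised counts in cKO libraries 1 to 6, against 736, 762, 587, 1105, 991 and 741 in control libraries 1 to 6. The groups overlapped, and control libraries 4 and 5 stood above all the others, which lay between 587 and 827. Rspo1, a secreted enhancer of Wnt signalling, had 161, 144, 202, 98.5, 131 and 183 in the cKO and 137, 111, 139, 130, 109 and 116 in the control libraries, and 4 of the 6 cKO libraries lay above each control. Whrn, a PDZ scaffold protein of sensory hair bundles, had 674, 764, 735, 509, 658 and 734 in the cKO and 781, 791, 741, 857, 850 and 784 in the control libraries, and 5 of the 6 cKO libraries lay below each control. The log2 fold changes were -0.12 for Rorb (95% interval -0.36 to 0.12, limma adjusted p = 0.689), 0.27 for Rspo1 (-0.03 to 0.58, 0.525) and -0.25 for Whrn (-0.45 to -0.04, 0.460). Without control libraries 4 and 5 the direction of Rorb turned, to 0.055. The upper bounds of all of these intervals lay below the lower bound of 1.15 for Scnn1a.

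**Figure D1:**
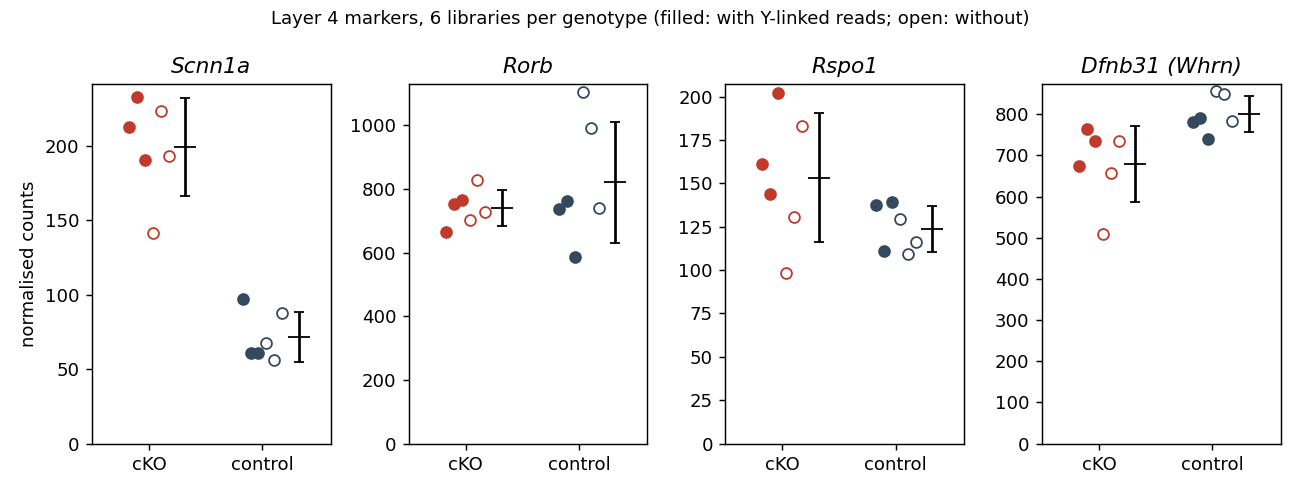
Normalised counts of the 4 layer 4 markers in each library, with cKO on the left and control on the right of each panel, the vertical axis starting at 0, and the bar showing the mean with its SD (n = 6). For Scnn1a every cKO point, from 141 upwards, lies above every control point, the highest of which is 97.1, while the groups overlap for Rorb, Rspo1 and Whrn.

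Set against the sum of Rorb, Rspo1 and Whrn in the same library, Scnn1a had 10.8 to 14.2 normalised counts per 100 in the cKO libraries and 2.87 to 5.86 per 100 in the control libraries. The means of this ratio were 12.6 ± 1.55 in cKO and 4.19 ± 1.19 in control cortex (SD, n = 6 each). cKO library 4, which held the lowest Scnn1a, Rspo1 and Whrn of its group, had a ratio of 10.8, still above each control. Further genes reported for layer 4 neurons were read from the same fit. Of these 5, none passed the test with limma, edgeR or DESeq2, and 1 had an unadjusted p under 0.05. That gene was Ctxn3, a small membrane protein of the cortexin family, with 67.1 ± 8.96 normalised counts in cKO and 52.0 ± 15.1 in control cortex (SD, n = 6 each), a log2 difference of 0.40 (limma adjusted p = 0.481). Arf5, a small GTPase of membrane traffic, followed at -0.13 on the log2 scale (limma adjusted p = 0.643).

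Levels between genes were compared per kilobase of exon sequence. In both genotypes Scnn1a was the lowest of the layer 4 markers. It stood at position 40 of the 45 markers in the control cortex and at position 28 in the cKO. Its level was 48.2 ± 7.94 normalised counts per kilobase in cKO and 17.3 ± 4.04 in control cortex (SD, n = 6 each). Its neighbours in the cKO order were Syt6 at 48.8 ± 7.59 and Mdga1 at 47.2 ± 8.60 per kilobase, and in the control order Sla at 20.2 ± 2.07 and Thsd7b at 16.4 ± 1.87, all within the SD of Scnn1a in that genotype. Rorb stood at 66.9 and 74.1 per kilobase in cKO and control, Rspo1 at 79.1 and 63.9, and Whrn at 92.6 and 109. The range over all markers ran from Hs3st4, at 5.48 per kilobase in cKO and 7.77 in control, to Pcp4 at 2741 and 2997.

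Of the 12 markers of layers 2/3, 6 lay above and 6 below 0, with a median log2 fold change of 0.05, against -0.00069 over all genes tested, where 7179 lay above and 7218 below. None passed the test, and 3 had an unadjusted p under 0.05. Wfs1, an endoplasmic reticulum protein, had 1561 to 2202 normalised counts in cKO (median 2005) and 1342 to 1951 in control libraries (median 1518), and 4 of the 6 cKO libraries lay above each control. Its log2 fold change was 0.26 (95% interval 0.03 to 0.49, limma adjusted p = 0.477). Rasgrf2, an exchange factor for Ras, ranged from 3092 to 3961 in cKO (median 3633) and from 2491 to 3714 in control libraries (median 3013), a log2 difference of 0.23 (95% interval 0.0087 to 0.45), and was not called after adjustment. Cux2 ranged from 2355 to 3129 in cKO (median 2908) and from 2548 to 3306 in control libraries (median 2909). Its groups had nearly the same median, and its log2 fold change was -0.03 (95% interval -0.22 to 0.16, limma adjusted p = 0.893).

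The remaining markers of layers 2/3 include the homeodomain factor Cux1, the LIM-homeodomain factor Lhx2 and the POU factors Pou3f2 and Pou3f3, whose log2 fold changes lay between -0.20 and -0.08. The value of Lhx2, -0.20, was -0.06 without cKO library 4, and that of Pou3f2, -0.16, turned to 0.046. Pvrl3, the adhesion molecule nectin-3, was at -0.10. Those of Otof, the calcium sensor otoferlin, the adhesion protein Mdga1, the calcium-binding protein Calb1 and the membrane protein Lamp5 lay between 0.13 and 0.23. Lamp5 and Calb1 gave different values in the sets of libraries. With Y-linked reads present, the log2 fold change was -0.06 for Lamp5 and -0.0037 for Calb1, and without them it was 0.52 for Lamp5 and 0.44 for Calb1 (limma adjusted p = 0.562 for either difference). Control libraries 4 and 5 had the lowest Lamp5 of all, at 2057 and 2233 normalised counts against 2653 to 3539 in the other 10, and the same held for Calb1. Without these libraries the log2 fold change over all others was 0.066 for Lamp5 and 0.071 for Calb1, against 0.23 and 0.22 with them. Of the markers not assigned to a single upper layer, Stard8 ranged from 531 to 835 in cKO and 557 to 840 in control libraries, and Bend5 from 146 to 172 and 138 to 213. Tnfaip8l3 had a log2 fold change of 0.0055.

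**Figure D2:**
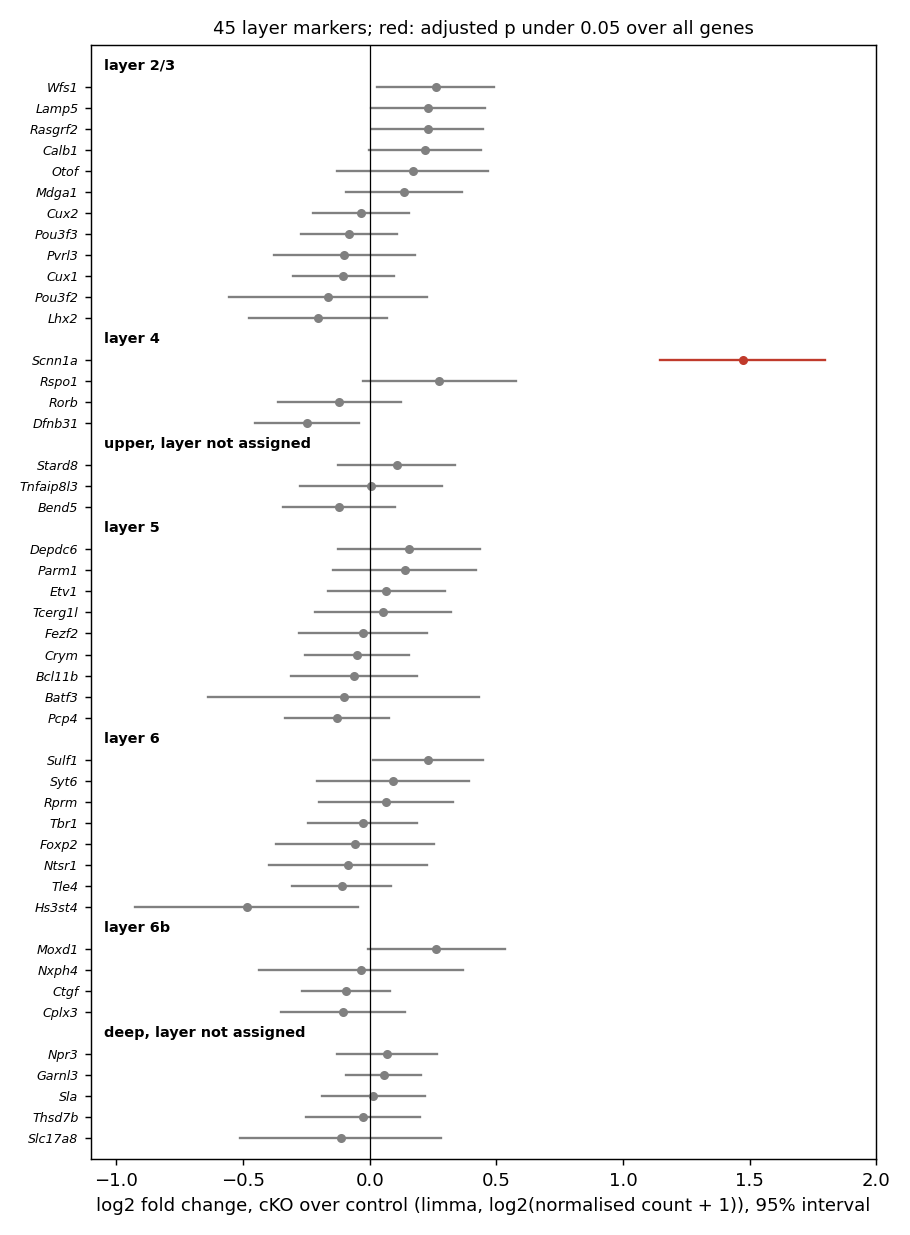
Log2 fold change of cKO over control for the 45 layer markers with its 95% interval from limma, grouped by layer on the vertical axis and ordered within each group, with called genes in red. Scnn1a stands apart at 1.47, and the other 44 lie between -0.49 and 0.27.

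In layer 5 no marker was called, 4 of 9 lay above 0, and the median on the log2 scale was -0.03 (-0.050 to 0.046 with single libraries left out). Fezf2, the zinc finger factor that specifies layer 5 neurons projecting below the cortex, ranged from 429 to 572 normalised counts in cKO (median 505) and from 351 to 671 in control libraries (median 510). Its log2 fold change was -0.03 (95% interval -0.28 to 0.23, limma adjusted p = 0.947), and that of Bcl11b, its partner in this identity, was -0.06. Pcp4, a regulator of calmodulin, had the smallest p of the layer, with 2467 to 3702 in cKO (median 2700) and 2525 to 3937 in control libraries (median 2928; log2 fold change -0.13, limma adjusted p = 0.617). Deptor, an inhibitor of mTOR, ranged from 566 to 925 in cKO and from 512 to 835 in control libraries (log2 fold change 0.15, limma adjusted p = 0.653). Etv1, an ETS factor, Crym, a thyroid hormone-binding protein, Parm1 and Tcerg1l lay between -0.05 and 0.14. Batf3, a leucine zipper factor, had few reads, at 15.2 ± 5.01 in cKO and 16.1 ± 4.53 in control cortex (SD, n = 6 each), from 10 to 29 reads per library.

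Of 8 layer 6 markers, 3 lay above 0 and none was called, with a median of -0.04 on the log2 scale (-0.12 to 0.033 with single libraries left out). Foxp2, a forkhead factor, ranged from 151 to 262 normalised counts in cKO (median 230) and from 163 to 284 in control libraries (median 230). The groups overlapped almost entirely, and Foxp2 differed by -0.06 on the log2 scale (95% interval -0.37 to 0.25, limma adjusted p = 0.890). Hs3st4, a sulfotransferase of heparan sulfate, had 11.9 to 23.0 in cKO (median 17.6) and 17.5 to 33.6 in control libraries (median 24.2), and 3 of the 6 cKO libraries lay below each control. Its log2 fold change of -0.49 was the lowest of the 45 and rested on 10 to 31 reads per library (95% interval -0.93 to -0.05, limma adjusted p = 0.481). Sulf1, which removes sulfate from heparan sulfate outside the cell, ranged from 331 to 394 in cKO (median 368) and from 262 to 391.8 in control libraries (median 311; log2 fold change 0.23, limma adjusted p = 0.496). Tbr1, the corepressor Tle4, the neurotensin receptor Ntsr1, Syt6 and Rprm lay between -0.11 and 0.09.

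In layer 6b, Moxd1, a monooxygenase of the secretory pathway, ranged from 110 to 155 normalised counts in cKO (median 128) and from 81.1 to 145 in control libraries (median 115; log2 fold change 0.26, limma adjusted p = 0.518). Ctgf, a secreted matricellular protein used as the marker of this layer, ranged from 566 to 678 in cKO and from 601 to 781 in control libraries (log2 fold change -0.09, limma adjusted p = 0.658). Cplx3, a complexin of synaptic vesicle release, and Nxph4, a neurexophilin, were at -0.11 and -0.04. The median of the 4 was -0.07 (-0.12 to 0.023 with single libraries left out). Among the 5 deep markers without an assigned layer, Garnl3 varied least between libraries of all 45, from 1533 to 1865 in cKO and 1508 to 1654 in control libraries (log2 fold change 0.06, limma adjusted p = 0.761). Npr3, the clearance receptor of natriuretic peptides, ranged from 264 to 314 in cKO and 227 to 313 in control libraries (log2 fold change 0.07). Sla, an adaptor protein, was at 0.01, Thsd7b at -0.02, and Slc17a8, the vesicular glutamate transporter VGLUT3, at -0.11.

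How large a change could have been missed is given by the intervals. For 42 of the 44 markers that were not called, the 95% interval lay within a ratio of 1.5 in either direction, and the exceptions were Hs3st4 and Batf3. In 6 of the 44 the interval excluded 0 (4 above it, 2 below it), and none of these passed the adjustment over all genes. With Scnn1a, 7 of 45 markers, or 15.6%, had an unadjusted p under 0.05, against 9.73% of all genes tested.

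The libraries differed from each other in ways that genotype did not follow. The lowest value of a marker was found in cKO library 4 for 11 markers and in control library 3 for 10, and the highest in cKO library 4 for 7. The mean log2 deviation of the layer 6 markers ran from -0.18 in cKO library 3 to 0.14 in cKO library 5, and from -0.16 in control library 3 to 0.26 in control library 2. That of layers 2/3 ran from -0.18 in cKO library 4 to 0.18 in cKO library 2, and from -0.09 in control library 5 to 0.10 in control library 2. Within a genotype, the SD on the log2 scale lay between 0.08 for Garnl3 and 0.40 for Batf3, with Scnn1a at 0.29. Control libraries 4 and 5 both lay above the other 10 for Cux1, Pvrl3, Rorb, Whrn and Tle4, and both below them for Lamp5, Calb1, Mdga1, Tcerg1l and Moxd1.

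**Figure D3:**
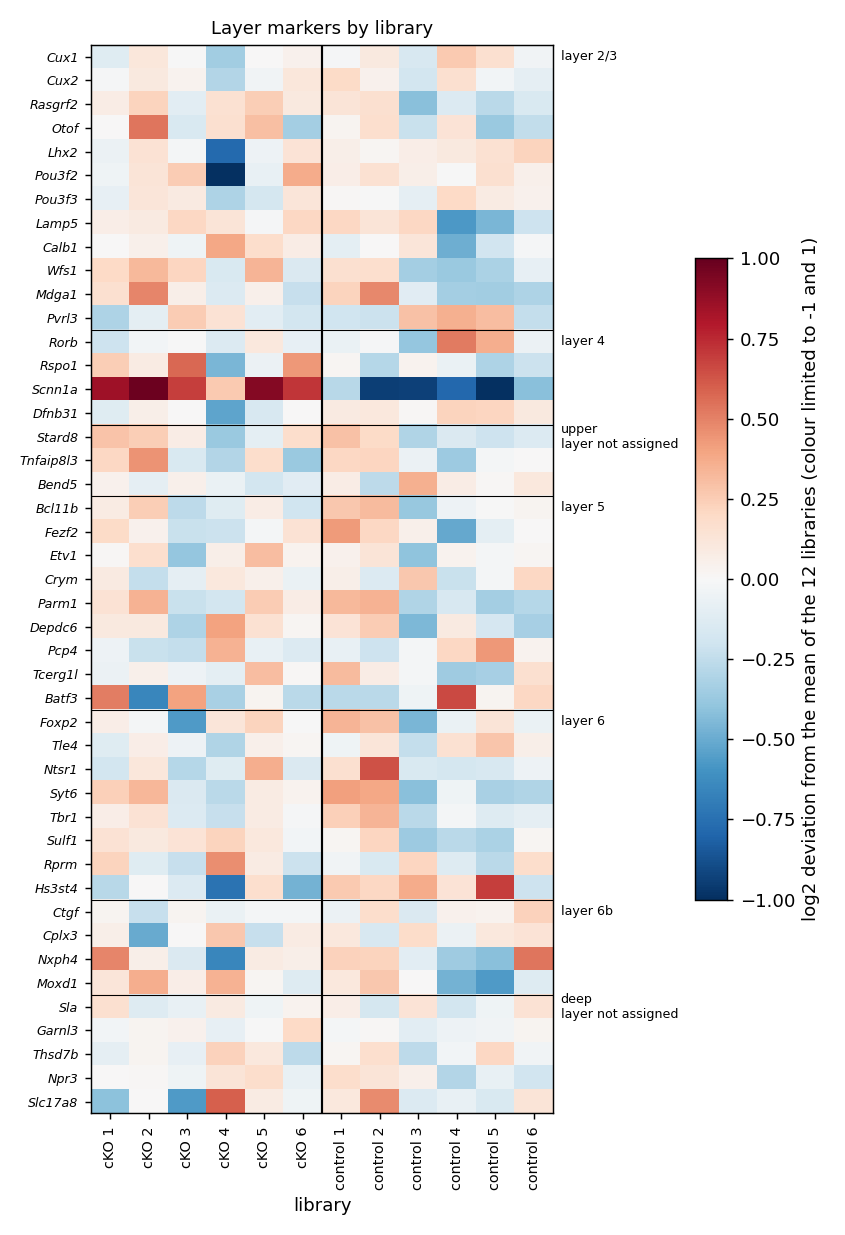
Log2 deviation of each marker (vertical axis, grouped by layer) from its mean over the 12 libraries (horizontal axis, cKO left of the line and control right), with red above and blue below the mean. Only the Scnn1a row is red in all 6 cKO libraries and blue in all 6 control libraries, while cKO library 4 stands out low for Lhx2 and Pou3f2, and control libraries 4 and 5 for Lamp5.

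In 23 of the 45 markers the log2 fold change had opposite signs in libraries with and without Y-linked reads. The share of such genes among all genes tested was not computed, so this count is not read as a trait of the markers. For 20 of the 44 markers not called, the log2 fold change over all libraries was under 0.1 in size. No difference between the sets was called for a marker by limma, edgeR or DESeq2. Over all genes, limma and edgeR each called 0 of 14397, and DESeq2 called 3 of 19996. By limma, 3 of the 45 markers had an unadjusted p under 0.05, against 8.77% of all genes. These were Lamp5, Calb1 and Npr3, the smallest adjusted p being 0.562.

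**Figure D4:**
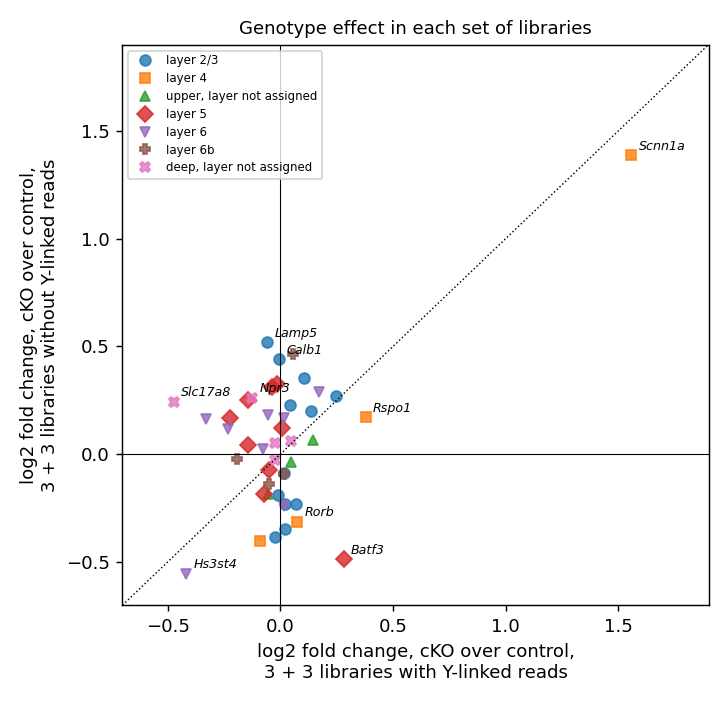
Log2 fold change of cKO over control among the 3 cKO and 3 control libraries with Y-linked reads (horizontal axis) and among the 3 and 3 without (vertical axis), 1 point per marker with the symbol giving its layer, and equal values on the dotted line. Scnn1a lies at 1.56 and 1.39, apart from the other markers, which scatter around 0 in both directions.

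The other genes of the sodium channel family and its regulators were read from the same fit. Of 14 genes listed, 8 passed the expression filter, and 7 of these lay above 0, the median being 0.14 on the log2 scale. None was called with limma, edgeR or DESeq2, and 1 had an unadjusted p under 0.05. That gene was Asic4, a relative of the channel that is named for the acid-sensing ion channel family. It had 236 ± 42.5 normalised counts in cKO and 182 ± 18.7 in control cortex (SD, n = 6 each). The log2 difference was 0.36 (limma adjusted p = 0.381). Without cKO library 4, where it stood at 161, its log2 fold change was 0.46 and it was called (limma adjusted p = 0.0395). Nedd4, a ubiquitin ligase of the family that removes the channel from the membrane, was at 0.18 on the log2 scale (limma adjusted p = 0.527). The genes of the channel's partner subunits had few reads in either genotype. Scnn1b had 10 reads in the 6 cKO libraries together and 1 in the 6 control libraries, and Scnn1g had 19 in the cKO and 7 in the control libraries, both below the filter. Without the filter neither was called (limma adjusted p = 0.517 and 0.689).

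On the chromosome, the RefSeq annotation places Cd27, Tuba3a and Ltbr on one side of Scnn1a and Tnfrsf1a, Plekhg6 and Cd9 on the other. Of these, Ltbr, Tnfrsf1a and Cd9, which are expressed above the filter, had log2 fold changes of -0.0067, -0.08 and -0.20, none called (limma adjusted p = 0.992, 0.766 and 0.591), and the other 3 had means below 10 normalised counts. No annotated gene overlapped Scnn1a on the opposite strand, whereas 14 of the 45 markers had such a partner, with which they may share reads if counting ignored the strand.

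Marker lists of other cells and regions were set beside the Scnn1a result. The 8 general markers of excitatory neurons summed to 118887 to 147828 normalised counts in cKO and 139419 to 146544 in control libraries, with none called. Camk2a, at 57371 to 75329 in cKO and 61483 to 90754 in control libraries, was the largest part of these sums. Its log2 fold change was -0.17, while 6 of the 8 lay above 0 and 2 below, with a median of 0.085. The 10 interneuron markers summed to 10639 to 14154 in cKO and 10524 to 14932 in control libraries, also with none called. Of the 8 astrocyte markers, Aqp4 alone was called, with 3035 normalised counts in cKO and 2109 in control cortex. The SDs were 284 and 297 (n = 6 each), and the log2 fold change was 0.53 (limma adjusted p = 0.0097). Of the 8, 5 lay above 0 and 3 below, with a median of 0.043. With Aqp4, 2 of the 8 had an unadjusted limma p under 0.05, against 9.73% of all genes tested. The other was Gja1, at 0.28 (limma adjusted p = 0.368). Below 0 were Aldoc and S100b, both at -0.19, and Slc1a2 at -0.04. Of the 8 hippocampal markers, 7 were tested and Lct alone was called, with 66.0 normalised counts in cKO and 28.3 in control cortex. With Lct, 3 of the 7 had an unadjusted limma p under 0.05, against 9.73% of all genes tested. The others were Neurod1, at 0.34 on the log2 scale (limma adjusted p = 0.476), and Wfs1, which is also a layer 2/3 marker here. The sum of the 8 was 2763 to 3748 in cKO and 2440 to 3310 in control libraries. Wfs1 alone gave 1561 to 2202 of it in cKO and 1342 to 1951 in control libraries. None of the oligodendrocyte, microglial, vascular, thalamic, striatal, claustral and choroid plexus markers tested was called, and the thalamic marker Gbx2 averaged 0.15 normalised counts in cKO and 0.46 in control cortex. The mean log2 deviation of the 8 striatal markers differed between cKO and control by 0.38 with Y-linked reads and by -0.35 without them. Over all genes tested these differences were 0.020 and -0.038. By library, the striatal mean ran from -0.35 to 0.42 in cKO and from -0.43 to 0.42 in control libraries. Limma called no difference between the sets for any gene tested. The part of these cells and regions in the Scnn1a result was not tested.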

How the data were processed

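Total RNA (250 ng per library) was depleted of ribosomal RNA and sequenced with a directional kit, per the labels' protocols. Bowtie and STAR, Trim Galore and bedtools stand in the submitters' processing notes, with the build mm9. Versions, and whether counting used the strand, are not given in the sources used here. The signal values are gene counts that the authors normalised with DESeq2, per the file headers. The deposited table also holds, from the authors, a log2 fold change per gene, its error, a Wald score and p-values. Within 0.01 of a read, 100% of the deposited values above 0 were whole multiples of 1 step per library, and reads were recovered from these steps.

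The tests were limma with an intensity trend on log2(normalised count + 1), two-sided, with genotype and a term for Y-linked reads, over 14397 genes with a mean of at least 10. Fold changes on this scale understate changes of weakly expressed genes. Columns were assigned to genotypes only, because Y-linked reads disagreed with the sex label of the same number in 8 of 12 columns. No pair of replicates was a duplicate (30 pairs, chi-square of 7.22 to 170 per degree of freedom). The markers and lists were chosen with earlier results of these data known. Values for every library or their range are given for the called layer marker, the other layer 4 markers, Cux2, Fezf2 and Foxp2. They are also given for the 2 smallest p of each layer, and of the upper and the deep markers without a layer. Any layer marker without overlap between groups was included too. Lengths are unions of GENCODE exons, and neighbours come from RefSeq, both on GRCm38, so no coordinates are printed. No promoter sequence is shown, Scnn1a having no entry in the table used. The fits were checked on simulated data. Alternatives were the pseudocount, the filter, TMM scaling, edgeR and DESeq2, the covariates and leaving out libraries, with R 4.3.3, limma 3.58.1, edgeR 4.0.16 and DESeq2 1.42.0. Intervals cover the spread between libraries, and no counting intervals are given.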

Additional observations from a re-analysis of the deposited data

Results flagged for a closer look

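In 6 of 90 groups of 6 libraries (45 markers in each genotype), 1 library lay far from the other 5 by Dixon's criterion at its 95% level, which chance passes in about 1 of 20 groups. Lhx2 stood at 606 normalised counts in cKO library 4, against 995 to 1149 in the other cKO libraries. Pcp4 stood at 3702 in the same library, against 2467 to 2814 in the others. Tcerg1l stood at 164 in cKO library 5, against 123 to 137 in the others, and Foxp2 at 151 in cKO library 3, against 222 to 262. Etv1 stood at 555 in control library 3, against 723 to 803 in the others, and Ntsr1 at 287 in control library 2, against 163 to 207. None of these 6 markers was called between the genotypes.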

How the results depend on the processing

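Scnn1a was called, with a higher level in the cKO, under all 22 alternatives, and it was the only marker called in each. Its log2 fold change ran from 1.39 to 1.56 and its adjusted p from 1.1e-15 (DESeq2) to 0.0023 (without control libraries 4 and 5), and from 1.41 to 1.56 with single libraries left out. The smallest adjusted p of any other marker under any alternative was 0.209. Columns with the same number did not all vary together. Correlations of their deviations from the genotype means ran from 0.09 to 0.50. By these, 4 of 6 cKO columns were closest to the control column of their own number. For deviations from the means of genotype and library set, the correlations ran from -0.098 to 0.48. With the number as a replicate block, the Scnn1a log2 fold change was 1.47 (limma adjusted p = 0.000451). Over all genes, 120 were called, and 58 with a mean of at least 50 required. Of the 44 markers not called, 25 kept their direction throughout, and 19 changed sign somewhere. The difference of the Scnn1a effects between the sets of libraries ran from -0.015 to 0.39 with single libraries left out. Over all 20 alternatives that gave this difference, it ran from -0.015 to 0.51 and was called in none. The sodium channel list had 0 to 1 called genes. Log2 fold changes that changed sign with single libraries left out ran from -0.24 to 0.021 for Batf3, -0.16 to 0.00070 for Bcl11b, -0.11 to 0.0049 for Crym, -0.085 to 0.021 for Cux2, -0.00045 to 0.14 for Etv1, -0.12 to 0.046 for Fezf2, -0.15 to 0.049 for Foxp2, -0.19 to 0.036 for Ntsr1, -0.12 to 0.11 for Nxph4, -0.29 to 0.046 for Pou3f2, -0.026 to 0.12 for Rprm, -0.024 to 0.049 for Sla, -0.019 to 0.17 for Syt6, -0.10 to 0.031 for Tbr1, -0.021 to 0.12 for Tcerg1l, -0.077 to 0.038 for Thsd7b and -0.065 to 0.071 for Tnfaip8l3. Without both control libraries 4 and 5 the sign changed for Cux2 (0.017), Pvrl3 (0.056), Rorb (0.055), Tnfaip8l3 (-0.024), Tcerg1l (-0.12), Batf3 (0.057), Rprm (-0.058) and Sla (-0.055), and the Thsd7b log2 fold change was 0.0027. With single libraries left out, the median over all 45 markers and those of layers 5, 6 and 6b also changed sign. So did those of the upper and the deep markers without a layer. The medians of layers 2/3 (0.015 to 0.089) and 4 (0.022 to 0.15, with Scnn1a included) stayed above 0. The cause of these changes was not tested. Hs3st4 and Batf3 rest on 10 to 31 reads per library, and the split by Y-linked reads rests on 3 libraries per genotype and set.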
